A study of Homo sapiens with 32 samples.

Results

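The replication-dependent histone genes are described here as the protein-coding GENCODE genes named H1-1 to H1-6, or H2AC, H2BC, H3C or H4C with a number, on chromosomes 1, 6 and 12. The rule gave 69 genes of the 20033 protein-coding genes on chromosomes 1 to 22, X and Y. They were 6 H1, 17 H2A, 18 H2B, 13 H3 and 15 H4 genes, with 55 on chromosome 6, 13 on chromosome 1 and 1 on chromosome 12. For each gene, the covered share is the percentage of the gene with 5 kb on each side that lay inside regions of uracil enrichment. The rule used no measured value, though earlier results of these data were known when the genes were chosen.

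Histone proteins package DNA. H2A, H2B, H3 and H4 form the core of the nucleosome, and H1 binds the linker DNA between nucleosomes. The replication-dependent genes are switched on in S phase, when new DNA has to be packaged, and in most of them the coding sequence has no intron. Their mRNAs end in a stem-loop instead of a poly(A) tail. The genes lie in clusters and in many copies, and each copy makes the same or nearly the same protein as others of its family. Many H2A and H2B genes lie head to head and share a promoter. Uracil enters DNA opposite adenine when dUTP replaces dTTP, which happens in the DNA being copied when thymidylate synthesis is blocked.

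In U-DNA-Seq, sheared DNA is bound by a tagged uracil-DNA glycosylase without catalytic activity, and the fragments it retains are sequenced beside the input DNA. The 14 libraries of HCT116, a colorectal carcinoma line without functional mismatch repair (MMR), came from 7 conditions with 2 biological replicates each, and K562, a chronic myelogenous leukemia line, gave 1 library. WT cells had no drug and no transgene. NT_UGI cells had no drug and carried UGI, a small protein that blocks uracil-DNA glycosylase. 5FdUR_UGI cells carried UGI and received 20 µM 5-fluoro-2'-deoxyuridine for 48 h, and RTX_UGI cells carried UGI and received 100 nM raltitrexed for 48 h. Both drugs block thymidylate synthase. The paper states that 5-fluoro-2'-deoxyuridine (5FdUR) also enters DNA itself, and that the method detects fluorouracil as well as uracil. Regions after 5FdUR may thus hold both bases. NT_UGI_MMR, 5FdUR_UGI_MMR and RTX_UGI_MMR are the same 3 conditions in HCT116 chr3+ cells, which hold an added chromosome 3 and are MMR proficient. UGI was delivered by a retrovirus and the transduced cells were sorted, so all drug-treated cells carry UGI while WT and K562 do not. The region files hold DNA positions and no expression, so the identity of the lines was not checked with marker genes.

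The 6 non-treated HCT116 libraries covered 321 to 331 Mb with regions and the 8 drug-treated ones 502 to 555 Mb. The paper states that the log2 thresholds were tuned to give replicates a similar total length. The totals thus rest on the authors' choice of threshold, and the larger total after drug treatment enters every comparison with non-treated cells. The lowest log2 value in a file was 0.25 to 0.33 in non-treated libraries, 0.25 to 0.27 in the 4 RTX libraries and 0.13 to 0.25 in the 4 5FdUR libraries. The 5FdUR_UGI replicate 1 library stood apart from the other 5FdUR libraries. Over the 69 genes its covered shares correlated with those of the RTX libraries at r = 0.57 to 0.88 and with those of the other 5FdUR libraries at r = -0.11 to 0.31. Over all 20033 genes the ranges were 0.57 to 0.63 with RTX and 0.12 to 0.71 with the other 5FdUR libraries. These are correlations across genes, which are not independent replicates. Its lowest log2 value was 0.25, against 0.14, 0.20 and 0.13 in the other 3. Whether the threshold has a part in the difference was not tested, and the comparisons of the drugs are given with and without this library. The libraries were sequenced at either of 2 centres with different instruments and read lengths, and which library came from which is not given in the sources used here, and its part in the results was not tested.

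The promoters of 5 genes are shown first because they mark the main patterns that follow. H4C7 and H2BC9 lie in the stretch that was covered after both drugs, H2BC26 in the chromosome 1 site with the highest shares after RTX, H2BC17 in a chromosome 6 site covered after 5FdUR, and H2BC7 in a stretch where no library covered the promoter. The sequences are those of RefSeq on GRCh38.p14, from 250 bases before to 50 bases after the start site, 5′ to 3′ on the strand of the gene. Capitals mark the octamer ATTTGCAT, the CCAAT box (CCAAT) and the TATA box (TATAAA), each searched on both strands.
H4C7, chr6:26246947-26247246, minus strand: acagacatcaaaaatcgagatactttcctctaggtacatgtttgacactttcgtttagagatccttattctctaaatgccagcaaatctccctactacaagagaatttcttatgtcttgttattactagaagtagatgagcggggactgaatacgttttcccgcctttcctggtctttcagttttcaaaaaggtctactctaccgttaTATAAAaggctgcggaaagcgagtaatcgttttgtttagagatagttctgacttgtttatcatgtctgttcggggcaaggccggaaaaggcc
H2BC9, chr6:26251364-26251663, plus strand: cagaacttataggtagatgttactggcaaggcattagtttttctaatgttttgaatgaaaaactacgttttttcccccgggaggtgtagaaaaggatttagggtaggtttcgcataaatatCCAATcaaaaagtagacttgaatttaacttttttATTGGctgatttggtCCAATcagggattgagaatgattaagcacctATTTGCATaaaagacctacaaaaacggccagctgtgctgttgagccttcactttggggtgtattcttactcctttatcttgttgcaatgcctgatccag
H2BC26, chr1:228457853-228458152, plus strand: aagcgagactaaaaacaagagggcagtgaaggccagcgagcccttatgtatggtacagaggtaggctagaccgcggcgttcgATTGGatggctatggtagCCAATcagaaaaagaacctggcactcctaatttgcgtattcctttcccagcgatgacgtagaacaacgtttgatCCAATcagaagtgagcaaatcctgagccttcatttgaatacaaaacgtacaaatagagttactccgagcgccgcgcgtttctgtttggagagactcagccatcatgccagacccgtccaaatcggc
H2BC17, chr6:27893175-27893474, plus strand: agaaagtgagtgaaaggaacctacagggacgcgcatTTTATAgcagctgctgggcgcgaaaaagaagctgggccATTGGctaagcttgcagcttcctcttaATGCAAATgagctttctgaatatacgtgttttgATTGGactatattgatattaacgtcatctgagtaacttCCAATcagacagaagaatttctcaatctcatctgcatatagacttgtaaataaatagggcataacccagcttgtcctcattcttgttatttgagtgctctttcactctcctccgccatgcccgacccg
H2BC7, chr6:26199266-26199565, plus strand: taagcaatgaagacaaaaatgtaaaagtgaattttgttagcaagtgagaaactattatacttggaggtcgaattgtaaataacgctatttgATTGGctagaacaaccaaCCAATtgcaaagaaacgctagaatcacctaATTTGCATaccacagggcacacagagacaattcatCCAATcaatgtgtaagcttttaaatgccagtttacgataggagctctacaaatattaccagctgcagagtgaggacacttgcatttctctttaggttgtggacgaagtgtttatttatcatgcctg

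RefSeq promoters were found for 64 of the 69 genes. The octamer, the binding sequence of POU-domain factors known from H2B promoters, was in 14 of 18 H2B and 11 of 16 H2A promoters, in 1 of 11 H3 promoters and in none of the 6 H1 and 13 H4 promoters. Over the 35116 promoters of the table, 1.77% held it. The CCAAT box was in every H1, H2A, H2B and H3 promoter and in 3 of 13 H4 promoters, against 34.6% of all promoters. The TATA box was in 42 of the 64, against 11.5% of all. The H2BC7 promoter holds an octamer and 3 CCAAT boxes, as the H2BC9 promoter does. The regions differed between both, and the H2BC7 promoter had 0% covered in all 15 libraries. The H2BC9 promoter was covered over its full length in 5FdUR_UGI replicate 1 and in 3 RTX libraries. It had 12.3% in RTX_UGI replicate 2 and 0% in 5FdUR_UGI replicate 2 and both 5FdUR_UGI_MMR libraries. The H2BC17 promoter was covered over its full length in both 5FdUR_UGI_MMR libraries and had 0% in all others, both 5FdUR_UGI libraries included. The H4C7 promoter was covered over its full length in 7 of the 8 drug-treated libraries and to 82% in RTX_UGI_MMR replicate 2. No promoter of the 64 had 150 or more covered bases in a non-treated HCT116 library.

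Histone genes were sparsely covered without drug. After either drug their mean covered share was higher, and it was higher after 5FdUR than after RTX on average, while over all genes it was higher after RTX. That order is for regions as deposited. With regions under a log2 of 0.34 left out, 15 of the 69 genes had the higher mean after 5FdUR (18.1% of all genes). The median difference was then 0. On the 300 Mb of highest log2 in each library, 50 of the 69 had the higher mean after 5FdUR (37.6% of all genes). The mean covered share of the 69 genes was 0.55 to 2.45% in the 6 non-treated libraries, with a median of 1.71%. It was 16.1 and 39.8% in 5FdUR_UGI, 28.95 and 44.7% in 5FdUR_UGI_MMR, 20.0 and 18.5% in RTX_UGI, and 19.2 and 10.8% in RTX_UGI_MMR. The drug-treated and non-treated values did not overlap. The mean over all 20033 genes was 4.20 to 4.59% without drug, 14.7 to 32.5% after 5FdUR and 32.7 to 44.1% after RTX. The histone genes were below the mean of all genes in all 6 non-treated, all 4 RTX libraries and 5FdUR_UGI replicate 1, and above it in the other 3 5FdUR libraries. Since neighbouring genes share bases (the 69 windows merge into 14 stretches of 521 kb), genes of 1 site are not independent.

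**Figure D1:**
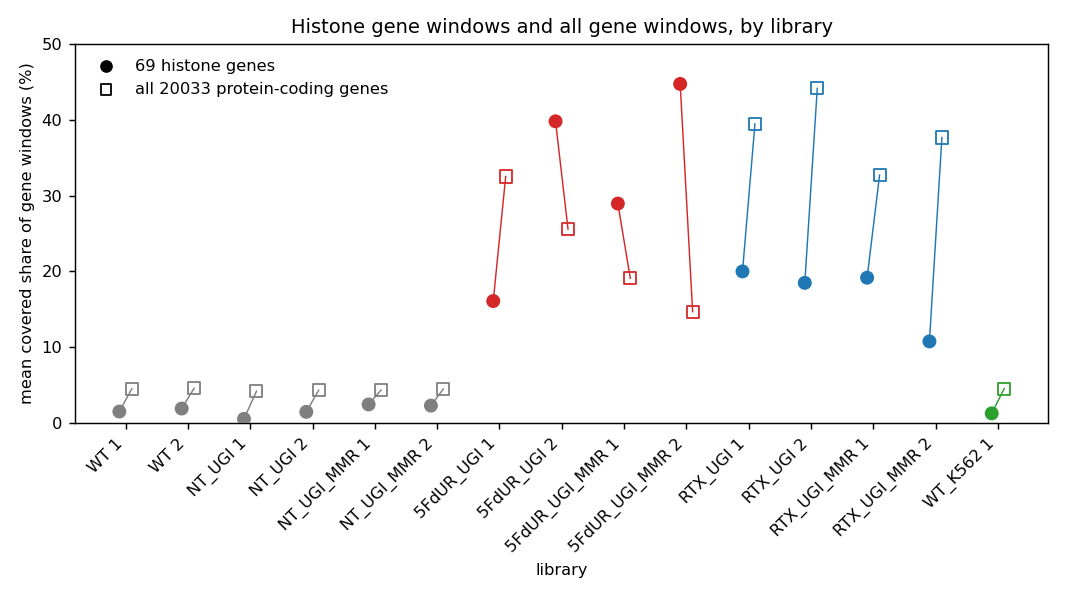
Mean covered share of gene windows (%) on the y axis in each of the 15 libraries on the x axis, for the 69 histone genes (filled circles) and all 20033 protein-coding genes (open squares), with the non-treated HCT116 libraries in grey, 5FdUR in red, RTX in blue and K562 in green. The circle lies above the square only in 5FdUR_UGI replicate 2 and both 5FdUR_UGI_MMR libraries.

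In the exact permutation test of the 8 drug-treated against the 6 non-treated libraries, 17 of the 69 histone genes were called higher after drug treatment and none lower (adjusted p of 0.05 or less, two-sided, 3003 exchanges, Benjamini-Hochberg over all genes). Of all genes 43% were called higher and 9.02% lower. The median difference of the histone genes was 18.04 percentage points, beside 26.7 for all genes. Of the 69 differences 67 were above 0, beside 16555 of the 20033 of all genes. For 6 histone genes the groups did not overlap and the drug-treated one was higher (18.8% of all genes), and for none was it lower without overlap (5.41% of all genes). The 6 were H2BC18, H4C6, H4C7, H3C7, H2BC9 and H4C8. Over both drugs the share of histone genes called higher was thus below that of all genes. The size of that gap depended on the window. On gene bodies alone 7 histone genes and 33.4% of all genes were called higher, and with 20 kb on each side 30 and 51.5%. The median histone gene is 503 bp long, and genes were not matched by length. Set against the non-treated libraries one drug at a time, 22 histone genes were called higher after 5FdUR, where 28.9% of all genes were, and 22 after RTX, where 63.1% of all genes were. The calls depended on the region threshold: when regions under a log2 of 0.34 were left out of all libraries, no histone gene was called and 3.16% of all genes were called higher. Without the WT libraries, so that all cells carried UGI, 7 histone genes and 13.3% of all genes were called.

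**Figure D2:**
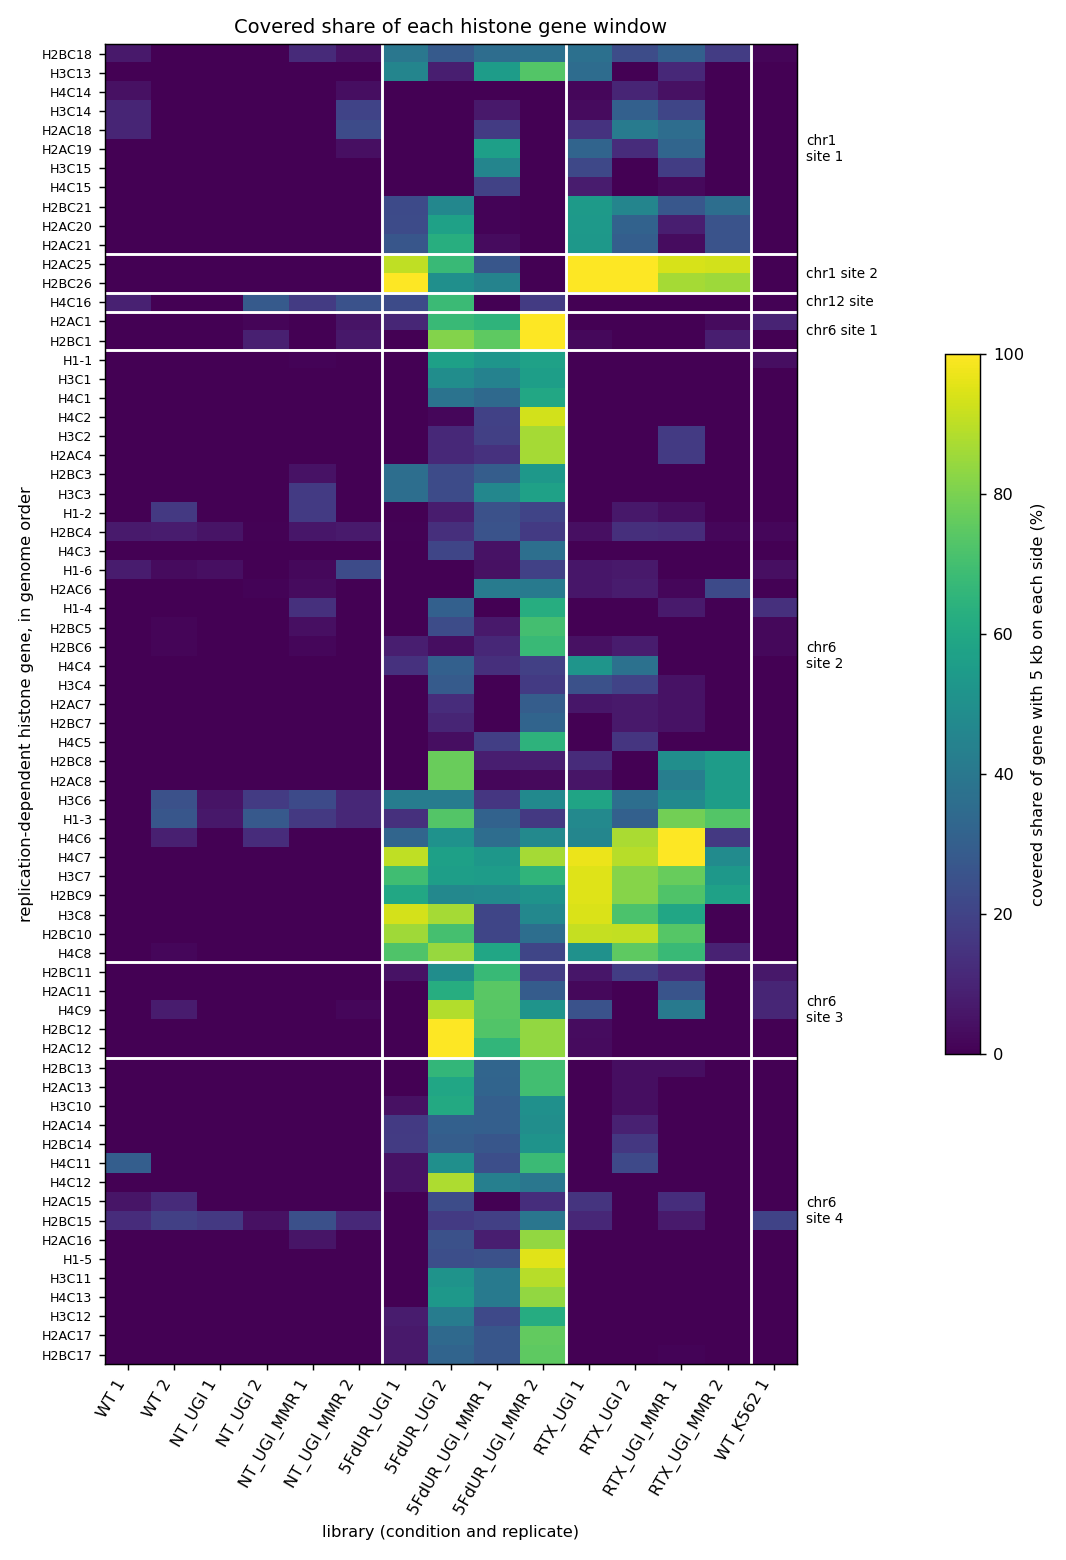
Covered share (%, colour scale from 0 to 100) of each of the 69 histone genes with 5 kb on each side (rows, in genome order, grouped by site) in the 15 libraries (columns). The non-treated columns are nearly empty, the stretch from H3C6 to H4C8 on chromosome 6 is covered after both drugs, and most other chromosome 6 genes are covered in 5FdUR_UGI replicate 2 and 5FdUR_UGI_MMR.

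Of the 6 linker histone H1 genes, H1-3 (chr6:26234212-26234987) was called higher. Its covered share had a lowest value of 0, a median of 13.8 and a highest value of 27.7% in the non-treated libraries, was 13.9, 73.2, 31.4 and 16.6% in the 5FdUR libraries and 47.2, 30.5, 78.7 and 73.2% in the RTX libraries. The groups overlapped, since 2 5FdUR libraries lay within the non-treated range, and the mean difference was 30.8 points (adjusted p = 0.0444, exact permutation test). The call was lost without any 1 of 11 libraries, namely the 6 non-treated ones, 5FdUR_UGI replicate 2 and the 4 RTX libraries. H1-1 (chr6:26017032-26017787) and H1-5 (chr6:27866792-27867588), both somatic subtypes as H1-3 is, had a share of 0 in every RTX library. In the 5FdUR libraries H1-1 had 0, 56.7, 52.1 and 57.2%, and H1-5 had 0, 24.1, 24.9 and 95.4%. In both genes the share of 0 was that of 5FdUR_UGI replicate 1. H1-2 (chr6:26055740-26056470) had means of 5.64% without drug, 13.2% after 5FdUR and 2.56% after RTX, and H1-4 (chr6:26156329-26157115) of 2.32, 23.2 and 1.85%. The testis-specific H1-6 (chr6:26107412-26108135) had 6.64 ± 8.28% without drug and 4.62 ± 6.69% with drug (SD, n = 6 and 8), a difference of -2.03 points that did not pass the test.

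Of the 17 H2A genes 3 were called higher, H2AC20, H2AC21 and H2AC25, all on chromosome 1. H2AC25 (chr1:228434777-228457873) had 0% in all 6 non-treated libraries, 90.3, 67.8, 26.9 and 0% in the 5FdUR libraries and 100, 100, 94.0 and 93.4% in the RTX libraries. The share of 0 after drug treatment was that of 5FdUR_UGI_MMR replicate 2, so the groups touched, and the mean difference was 71.5 points (adjusted p = 0.0138, exact permutation test). H2AC12 (chr6:27147106-27147562) had the highest 5FdUR mean of the family, with 0, 100, 65.9 and 83.7% in the 4 libraries. In RTX its highest share was 2.87%, and the difference from non-treated cells of 31.6 points did not pass the test (adjusted p = 0.164, exact permutation test). The lowest drug-treated means of the family were in H2AC7 (chr6:26198784-26199293), 7.41 ± 9.90%, and H2AC15 (chr6:27837880-27838375), 8.03 ± 9.14% (SD, n = 8). No non-treated library covered any part of H2AC7.

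Of the 18 H2B genes 5 were called higher. H2BC26 (chr1:228458103-228463104), which lies head to head with H2AC25, had 0% in every non-treated library, 100, 49.98, 44.7 and 0% after 5FdUR and 100, 100, 86.7 and 85.3% after RTX (difference 70.8 points, adjusted p = 0.0138, exact permutation test). H2BC9 (chr6:26251614-26252075) was also at 0% in all 6 non-treated libraries, and had 60.1, 46.7, 47.7 and 51.5% after 5FdUR and 95.2, 81.8, 72.3 and 57.1% after RTX. Its groups did not overlap (difference 64.1 points, adjusted p = 0.00408, exact permutation test). The other 3 called genes were H2BC10 in the same stretch and H2BC18 and H2BC21 on chromosome 1. H2BC15 (chr6:27838545-27855709) had the highest non-treated mean of the 69 genes, 14.79 ± 6.87% (SD, n = 6), and was present in all 6 non-treated libraries at 4.42 to 24.3%. After drug treatment it had 11.8 ± 13.53% (SD, n = 8), a difference of -3.03 points that did not pass the test. H2BC4 (chr6:26086317-26123926), at 37610 bp the longest annotated gene of the set, and H2BC7 (chr6:26199516-26199988) had the lowest drug-treated means of the family, 11.1 ± 8.54 and 6.79 ± 11.1% (SD, n = 8).

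Of the 13 H3 genes 4 were called higher, H3C13 on chromosome 1 and H3C6, H3C7 and H3C8 on chromosome 6. H3C7 (chr6:26250142-26250635) had 0% in all non-treated libraries, 69.2, 56.2, 55.3 and 65.4% after 5FdUR and 95.2, 81.9, 76.8 and 53.4% after RTX. The groups did not overlap (difference 69.2 points, adjusted p = 0.00408, exact permutation test). H3C8 (chr6:26270918-26271413) was covered to 93.5, 86.5, 21.0 and 46.7% after 5FdUR and to 94.3, 71.6, 59.2 and 0% after RTX. H3C6 (chr6:26224199-26227473) is 1 of the 3 genes with the highest non-treated means, with a lowest value of 0, a median of 14.3 and a highest of 24.9%. Its drug-treated shares were 42.0, 42.0, 15.8 and 47.5% after 5FdUR and 58.6, 36.2, 47.5 and 55.6% after RTX (difference 29.6 points, adjusted p = 0.0116, exact permutation test). H3C14 (chr1:149840687-149841208) and H3C15 (chr1:149852608-149853125) had the lowest drug-treated means, 7.62 and 10.7%.

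Of the 15 H4 genes 4 were called higher, H4C4, H4C6, H4C7 and H4C8. H4C7 (chr6:26246611-26246996) had the largest difference of the 69 genes. It was at 0% in all 6 non-treated libraries, at 90.5, 56.7, 53.0 and 86.6% after 5FdUR and at 97.1, 89.5, 100 and 48.1% after RTX. The groups did not overlap (difference 77.7 points, adjusted p = 0.00408, exact permutation test). H4C8 (chr6:26277609-26285638) had 1.66% in WT replicate 2 and 0% in the other non-treated libraries, 72.3, 84.5, 59.0 and 20.7% after 5FdUR and 50.6, 75.4, 67.8 and 9.64% after RTX, again without overlap. H4C14 (chr1:149832657-149839767) and H4C15 (chr1:149854045-149861159), which lie in a duplicated stretch, had the lowest means of the family, 2.07 ± 3.69 and 3.73 ± 6.95% after drug treatment (SD, n = 8). H4C16 (chr12:14767999-14771131), the only gene on chromosome 12, had 0 to 28.2% without drug, 22.8, 68.0, 0 and 17.5% after 5FdUR and 0% in all 4 RTX libraries.

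Reads mapped to several places were removed by the authors, and that bears on part of these genes. Of all stretches of 100 bases in a gene window, the share that also occurs elsewhere in the genome was 57.7 to 90.6% for H4C14, H3C14, H2AC18, H2AC19, H3C15 and H4C15 on chromosome 1. It was above 10% in 10 of the 69 genes and 0 in 29. Of the 59 genes with at most 10%, 15 were called higher, a count chosen after the data were seen. The part of repeated sequence in the low shares of the other genes was not tested.

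The genes fell into 7 sites, taken as runs with gaps of at most 100 kb. Chromosome 6 site 1 at 25.72 Mb holds H2AC1 and H2BC1, 2 testis-specific genes, and was covered to 10.04, 63.8, 67.0 and 100% in the 5FdUR libraries and to 0 to 6.45% in the RTX libraries. Site 2, from 26.01 to 26.29 Mb with 32 genes, had 18.6, 29.8, 24.1 and 41.9% after 5FdUR and 21.5, 22.8, 23.3 and 12.5% after RTX. These 2 sets of values overlap. Site 3 at 27.12 Mb (5 genes) had 2.53, 72.8, 71.4 and 47.9% after 5FdUR and 0 to 13.6% after RTX, and site 4 at 27.80 Mb (16 genes) had 3.84, 45.9, 24.0 and 59.7% and 0 to 3.11%. In sites 1, 3 and 4 the lowest 5FdUR value was always that of 5FdUR_UGI replicate 1. All 4 5FdUR values lay above the 4 RTX values in sites 1 and 4, and 3 of them did in site 3. None of the 2, 5 and 16 genes of sites 1, 3 and 4 was called in the test of drug-treated against non-treated libraries.

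On chromosome 1, site 1 at 149.78 Mb (11 genes) was covered to 12.8 to 19.2% after 5FdUR and 11.4 to 22.6% after RTX, against 0 to 4.08% without drug, and 5 of its genes were called higher. Site 2 at 228.43 Mb, with H2AC25 and H2BC26, had 91.7, 58.5, 36.1 and 0% after 5FdUR and 100, 100, 94.8 and 94.3% after RTX, and was at 0% in every non-treated library and in K562. Both 5FdUR_UGI values there were above both 5FdUR_UGI_MMR values. H3-4, a testis-specific H3 variant that is not replication-dependent, lies next to this pair at chr1:228424845-228425360 and was covered to 100% in all 4 RTX libraries and 0 to 100% in the 5FdUR libraries.

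The chromosome 6 cluster span, from the start of H2AC1 to the end of H2BC17 (chr6:25723397-27893891, 2170 kb, 41.1% GC), was covered more after drug treatment. It was covered to 5.58 to 6.81% in the 6 non-treated libraries (median 6.58%), to 47.1, 48.5, 36.8 and 46.2% in the 5FdUR libraries and to 22.4, 24.8, 19.1 and 14.9% in the RTX libraries. All 8 drug-treated values lay above all non-treated ones, and the difference of means was 26.02 points (exact permutation test, two-sided, p = 0.00167, 3003 exchanges). All 4 5FdUR values also lay above the 4 RTX values (difference 24.4 points, exact permutation test, p = 0.0286, the smallest that 70 exchanges allow, a test added after the values were seen). On the histone windows of the span alone it was 18.27 points and did not pass (exact permutation test, p = 0.114, 70 exchanges). Without 5FdUR_UGI replicate 1 the difference over the whole span was 23.5 points. It fell to 6.04 points (exact permutation test, p = 0.657) when regions under a log2 of 0.34 were left out, and was 22.95 points (p = 0.0286, exact permutation test) on the 300 Mb of highest log2 in each library. The lowest log2 value in the files differed between the drugs, 0.13 to 0.25 after 5FdUR and 0.25 to 0.27 after RTX, and these alternatives bear on it directly. The span is the telomeric end of the extended major histocompatibility complex, so these values are shared with that locus.

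Within the span, the drug-treated regions lay less on the histone genes than beside them. The 367 kb of histone windows were covered to 12.3, 38.1, 30.6 and 49.8% in the 5FdUR libraries, and the other 1804 kb to 54.2, 50.6, 38.1 and 45.4%. The windows were thus lower than the rest in 3 of the 4 5FdUR libraries, by 41.9 points in 5FdUR_UGI replicate 1, and 4.34 points higher in 5FdUR_UGI_MMR replicate 2. In RTX the windows had 15.7, 16.8, 16.96 and 8.29% and the rest 23.8, 26.4, 19.5 and 16.3%, lower in all 4. In the non-treated libraries the windows were lower too, at 1.62 to 4.95% against 6.23 to 7.77%. By distance, the mean 5FdUR share was 32.6% within 1 kb of a histone gene, 32.8% from 1 to 5 kb, 42.5% from 5 to 20 kb, 56.2% from 20 to 100 kb and 43.9% further away. Without 5FdUR_UGI replicate 1 these means were 39.6, 39.4, 45.75, 54.8 and 40.5%. 5FdUR_UGI replicate 1 had the steepest course, from 11.8% within 1 kb to 60.7% at 20 to 100 kb. GC content was 43.3% within 1 kb and 40.5 to 41.1% in the other classes, and its part was not tested. The 10 kb bins at 955 to 1005 kb and 1055 to 1095 kb from the first gene had 0% in every HCT116 library. They count in the class over 100 kb away and in the rest of the span, and shares without them were not computed.

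**Figure D3:**
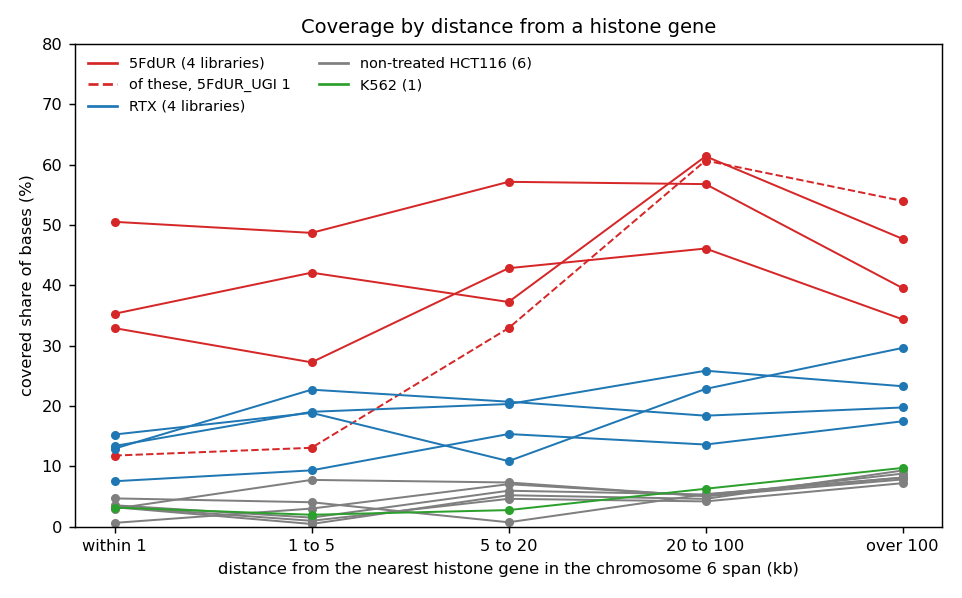
Covered share of bases (%) in the chromosome 6 cluster span on the y axis by distance from the nearest histone gene (kb) on the x axis, with 1 line for each library. The dashed line of 5FdUR_UGI replicate 1 starts among the RTX libraries near the genes, at 11.8%, and reaches the other 5FdUR libraries from 20 kb on.

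In bins of 100 kb, 12 of the 22 bins of the span were called higher after drug treatment and 1 lower (exact permutation test, adjusted over all bins), against 25.8 and 32.5% of all 29427 bins. Of the 6 bins in which histone genes start, 2 were among the higher ones. The bin from 26.2 Mb, with 12 gene starts, was covered to 2.25% without drug, 46.1% after 5FdUR and 48.4% after RTX (means). The bin from 27.1 Mb, with 5 starts, had means of 3.08, 56.8 and 8.65%. The pair of bins just before the one from 26.2 Mb, with 10 starts each, had 3.10, 28.45 and 4.33% and 3.30, 16.98 and 7.58%, and did not pass the test. The bin from 27.8 Mb, with 16 starts, did not pass either, with means of 4.57, 32.95 and 2.53%. In 5FdUR_UGI replicate 1 it was covered to 4.50%, and the bin before it, without a histone gene, to 80.1%. The only lower bin, from 26.9 Mb, holds no histone gene and had the lowest GC content of the span, 35.3%. Its mean fell from 34.3% without drug to 13.3% after 5FdUR and 6.55% after RTX.

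The 9 adjacent genes from H3C6 to H4C8 and, apart from them, H4C4 made up the 10 calls of site 2. The covered stretch went on past the histone genes into the butyrophilin genes. BTN1A1, a milk fat globule protein, had 0% without drug, 77.6% after 5FdUR and 77.8% after RTX (means). Of the 21 other protein-coding genes that overlap the span 12 were called higher, against 10 of the 55 histone genes, with medians of the difference of 34.3 and 18.04 points. PRSS16, a thymus serine protease about 100 kb after the third group of histone genes, had a mean of 95.1% after 5FdUR and 2.11% after RTX.

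Between the drugs, 49 of the 69 histone genes had the higher mean after 5FdUR and 20 after RTX, with a median difference (5FdUR minus RTX) of 17.9 points. The median was 7.49 to 24.45 points when 1 library at a time was left out, and without 5FdUR_UGI replicate 1 it was 24.45 points, with 51 genes higher after 5FdUR. When regions under a log2 of 0.34 were left out, 15 of the 69 genes were higher after 5FdUR and the median was 0 (18.1% of all genes were higher). On the 300 Mb of highest log2 in each library, 50 were higher after 5FdUR and the median was 10.6 points. Of all genes 7726 had the higher mean after 5FdUR and 11589 after RTX, with a median of -9.58 points. For 10 histone genes every 5FdUR library lay above every RTX library (9.18% of all genes), and for 1 below (25.1% of all genes). The 10 were H2AC1, H2BC3, H3C3, H3C10, H2AC14, H2BC14, H4C12, H3C12, H2AC17 and H2BC17, and the 1 was H2AC25. No gene passed the adjusted test in this comparison: the smallest p that 70 exchanges allow is 0.0286, and the lowest adjusted p was 0.0834. The count of genes without overlap rests on 5FdUR_UGI replicate 1, without which 30 histone genes lay above every RTX library (18.9% of all genes) and 3 below (37.5%). When regions under a log2 of 0.34 were left out, none lay above every RTX library.

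By family, the median 5FdUR minus RTX was positive in all 5, at 11.2 points in H2A, 16.0 in H1, 17 in H2B, 17.9 in H4 and 25 in H3. Without 5FdUR_UGI replicate 1 they were 18.1 to 34 points. By site it was 60.8 points in chromosome 6 site 1, 8.05 in site 2, 37.0 in site 3 and 35.3 in site 4, and -4.99 and -47.5 points in chromosome 1 sites 1 and 2. The chromosome 12 gene had 27.09 points. Without 5FdUR_UGI replicate 1 the chromosome 6 sites had 79.9, 11.1, 54.8 and 45.1 points, the chromosome 1 sites -4.14 and -63.4 points and the chromosome 12 gene 28.5 points. These values were not tested between sites or families. A share of 0 in all 4 RTX libraries was found for 16 histone genes (3431 of all 20033 genes). In all 4 5FdUR libraries it was found for 1, H4C14 (1720 of all genes). H2AC17 (chr6:27892699-27893185) and H2BC17 next to it show the contrast. H2AC17 had 6.68, 34.3, 26.7 and 76.1% after 5FdUR and 0% in every RTX and every non-treated library.

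The order of the drugs was also read within classes of GC content. In windows of 40 to 45% GC, 48 histone genes had a mean of 34.2% after 5FdUR and 15.5% after RTX, and the 5505 genes of that class 22.3 and 34.9%. In windows of 45 to 50% GC the 16 histone genes had 25.9 and 22.3%, and the 3923 genes of the class 30.4 and 48.5%. Without 5FdUR_UGI replicate 1 the 5FdUR means were 40.2% for the histone genes and 20.4% for all genes in the lower of these classes, and 28.55 and 25.3% in the upper. The histone genes of the lower class then had a median 5FdUR minus RTX of 28.8 points, with 40 higher after 5FdUR and 8 after RTX. Those of the upper class had a median of -2.38 points, with 7 higher after 5FdUR and 9 after RTX. The chromosome 6 genes of the upper class, H4C11, H4C12, H1-5, H3C11, H2AC17 and H2BC17, all had the higher mean after 5FdUR. Its other genes lie on chromosome 1, several in the duplicated stretch, and had the higher mean after RTX except H4C15. GC content and site went together here, and their parts were not tested. The median GC content was 43.0% over the histone windows, with 39.0 to 50.6% as range, and 44.7% over all genes.

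Where the histone genes were covered, the enrichment was mostly below the average of the library. The mean log2 value over covered histone bases was 0.38 to 0.43 in RTX and 0.22 to 0.40 in 5FdUR, against 0.40 to 0.46 and 0.22 to 0.44 over all region bases. In the non-treated libraries it was 0.31 to 0.41, against 0.37 to 0.46. The log2 value over covered histone bases was the lower one in 12 of the 14 HCT116 libraries. The exceptions were both RTX_UGI_MMR libraries, at 0.427 against 0.427 and 0.404 against 0.402.

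No difference by MMR status passed the test at a histone gene. With labels exchanged only within a treatment (12 UGI libraries, 216 exchanges), none of the 69 genes had an adjusted p of 0.05 or less, nor did any of the 20033, and none of the 69 had an unadjusted p under 0.05, against 5.22% of all genes. The median difference, MMR proficient minus deficient, was 5.37 points for the histone genes and -3.25 for all genes. That of the histone genes was 0.41 to 8.59 points when 1 library at a time was left out, the lowest without 5FdUR_UGI replicate 1, and 0 on gene bodies alone or without regions under a log2 of 0.34. After 5FdUR, 13 histone genes were higher in both MMR proficient libraries than in both deficient ones (17.6% of all genes) and 9 lower (36%). After RTX, 3 were higher (16.2%) and 14 lower (28.1%), and without drug 2 were higher (6.55%) and none lower (5.71%). These counts are of 2 libraries against 2, which cannot reach 0.05. H2AC25 had 90.3 and 67.8% in 5FdUR_UGI and 26.9 and 0% in 5FdUR_UGI_MMR, and H4C2 had 0 and 1.76% and 19.3 and 93.3%. Over the span, the MMR proficient libraries were 4.50 points lower (exact permutation test, p = 0.0185, 216 exchanges, added after the values were seen).

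UGI without drug and the second cell line showed little at these genes. In WT 10 and 13, in NT_UGI 5 and 10 and in NT_UGI_MMR 16 and 14 of the 69 genes had any covered base, and no gene was covered over more than 50%. Between NT_UGI and WT, 2 libraries each and without a test, no histone gene was higher without overlap (4.84% of all genes) and 2 were lower (7.18%). In K562, 14 histone genes had any covered base, the mean share was 1.28% and that of HCT116 without drug 1.70 ± 0.69% (SD, n = 6). The highest K562 share was that of H2BC15, 20.3%, and the K562 span share was 7.37%. K562 has 1 library, so no test was made. Of the 69 genes 40 had a share of 0 in all 6 non-treated HCT116 libraries (10232 of all 20033 genes). Each of the 69 was covered in part in at least 1 library.

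Lists of other genes of histone supply were compared in the same test. Of the 24 replication-independent histone genes 10 were called higher and none lower, with a median difference of 32.4 points, beside 43 and 9.02% of all genes and a median of 26.7. MACROH2A1, a large variant of H2A, had 0.18 ± 0.43% without drug, 60.3 ± 17.4% after 5FdUR and 86.0 ± 7.29% after RTX (SD, n = 6, 4 and 4, difference 73.0 points, adjusted p = 0.00408, exact permutation test). H3-4 had the largest difference of the list, 76.9 points. H2AB2, an X-linked H2A variant, was at 0% in all HCT116 libraries, and H3Y1, a primate H3 variant, had 2.43% without drug and 0% with drug. A further entry of the list, H2BU1, is the older symbol of H2BC26 and is counted above.

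Of the 19 factors of histone mRNA synthesis and processing 8 were called higher and 2 lower (43 and 9.02% of all genes). SLBP, which binds the stem-loop of the histone mRNA, had 0% without drug, 29.3 ± 43.9% after 5FdUR and 91.6 ± 10.2% after RTX (SD, n = 4 each, adjusted p = 0.0315, exact permutation test), a call lost without any 1 of 11 libraries. CSTF2, a subunit of the cleavage stimulation factor, had 1.02, 45.3 and 83.5%. The 2 that fell were NPAT, a coactivator of histone gene transcription, from 5.88 ± 3.96% to 0.12 ± 0.28%, and FIP1L1, a polyadenylation factor, from 20.8 ± 4.88% to 4.54 ± 4.397% (SD, n = 6 and 8, adjusted p = 0.00408 for both, exact permutation test). Of the 21 histone chaperones 12 were called higher and 1 lower. MCM2, a subunit of the replicative helicase that also binds H3 and H4, had 0, 55.0 and 66.4%, and SUPT16H, a subunit of the FACT complex, had 0, 18.6 and 96.1%, a call lost without 5FdUR_UGI replicate 1 or any 1 of the RTX libraries. ATRX, which deposits H3.3 with DAXX, fell from 9.75 ± 2.06% to 2.84 ± 2.02% (SD, n = 6 and 8, adjusted p = 0.00408, exact permutation test), and ASF1A, a carrier of H3 and H4, had 10.8, 6.37 and 0%, which did not pass the test.

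Between the drugs, the median 5FdUR minus RTX was 0 for the replication-independent genes, -23.4 points for the mRNA factors and -50.9 for the chaperones, beside 17.9 for the replication-dependent genes and -9.58 for all genes. Without 5FdUR_UGI replicate 1 the medians of the lists were -2.30, -30.3 and -52.5 points. The counts of calls in these lists depended on the number of libraries: without any 1 of the 6 non-treated libraries, 5FdUR_UGI replicate 1 or any 1 of the 4 RTX libraries, 5 or 6 replication-independent genes, 4 or 5 mRNA factors and 5 or 6 chaperones were called higher.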

How the data were processed

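U-DNA-Seq was measured in 14 HCT116 libraries and 1 K562 library, each set against its own input. Per the labels and the methods, the authors aligned reads to GRCh38 with BWA 0.7.17-r1194, used SAMtools 1.9-50 and Picard, removed duplicates, ambiguously mapped reads and blacklisted regions, and computed genome-scaled coverage with deepTools 3.2.1 in 100 bp bins with 5000 bp smoothing. The authors took the log2 ratio of enriched over input coverage and deposited, for each library, the regions above a threshold of its own with their mean log2 value. Read depth is not in these files, so no counting error is given, and merged replicate files were not used.

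The covered share of a gene with 5 kb on each side (GENCODE release 44) was computed with Python 3.11.15, numpy 2.4.6, pandas 2.3.3 and numba 0.67.0. Means of libraries were compared by exact permutation tests, two-sided, with Benjamini-Hochberg adjustment over all 20033 genes or 29427 bins, and a gene was called at an adjusted p of 0.05 or less. The scripts were tested on simulated data. Named genes were every H1 gene, the 2 highest and 2 lowest drug-treated means of each other family, the 3 highest non-treated means, the 3 largest and 3 smallest differences, the chromosome 12 gene, the second chromosome 1 site, and the 2 largest and 2 smallest differences of each list. H2AC17, H4C2, BTN1A1 and PRSS16 were added after their values were seen. The histone genes and the lists were chosen with earlier results of these data known. Alternatives varied the flank, the log2 threshold, the region length, the scaling and the libraries.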

Additional observations from a re-analysis of the deposited data

Results flagged for a closer look

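The share of the chromosome 6 cluster span differed between the drugs, by 24.35 points (5FdUR minus RTX, exact permutation test, p = 0.0286, the smallest that 70 exchanges allow). It was 6.04 points (exact permutation test, p = 0.657) without regions under a log2 of 0.34. On the histone windows of the span alone it was 18.27 points (exact permutation test, p = 0.114).

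Of 90 groups of 4 or 6 libraries tested over 36 items, 17 held a library that lay far from the others by Dixon's test. Dixon's test takes normally distributed values, and many of these shares are 0, so its rate of 0.05 by chance does not hold here. A group with every library but 1 at 0 is flagged whatever that value is. Neighbouring genes also share bases. RTX_UGI_MMR replicate 2 was the lowest RTX library in the mean share of the histone genes (10.77%), the histone windows in the span (8.288%), chromosome 6 site 2 (12.5%) and chromosome 6 site 4 (0%). 5FdUR_UGI_MMR replicate 1 was the highest 5FdUR library at H3C14 (6.653%), H3C15 (45.57%) and H4C15 (19.61%), whose windows consist mostly of repeated sequence. 5FdUR_UGI replicate 1 was the lowest at H1-1 (0%).

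Among the RTX libraries, RTX_UGI replicate 1 was the highest at H2AC12 (2.869%) and RTX_UGI_MMR replicate 1 at H1-4 (7.416%). Among the non-treated libraries, NT_UGI_MMR replicate 2 was the lowest in the span (5.58%) and the highest at H1-6 (22.71%), and NT_UGI_MMR replicate 1 was the highest at H1-1 (0.9297%) and H1-4 (13.91%). WT replicate 2 was the highest in chromosome 6 site 3 (2.526%) and at H4C8 (1.664%), and NT_UGI replicate 2 was the lowest at H2BC4 (0.4201%).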

How the results depend on the processing

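The 17 histone genes called higher became 7 on gene bodies alone (33.4% of all genes), 30 with 20 kb on each side (51.5%), 0 with log2 of at least 0.34 (3.16%), 2 with the 300 Mb of highest log2 (4.81%), 7 with regions of at least 5 kb (12.2%), 7 with UGI libraries only (13.3%), and 0 within either MMR background, where no gene of the 20033 was called. Within the MMR proficient libraries no gene could be called, since 15 exchanges are too few to pass the test. Within the MMR deficient libraries 70 exchanges allow no p under 0.0286, so a call needs a large part of all genes at that p. There 17 histone genes lay above every non-treated library (43.1% of all genes). One histone gene was called lower with the 300 Mb of highest log2 (1, against 0). Leaving out 1 library at a time gave 12 to 18 higher and 0 lower. With each share divided by the library's genome-wide share, 16 histone genes were called higher (41.2% of all genes). The span difference was then 18.49 points (exact permutation test, p = 0.004). The difference of the span, 26.02 points, was 9.285 with log2 of at least 0.34 and 10.57 with the 300 Mb. Neither passed the test. It was 23.74 to 28.53 with 1 library left out. In MMR proficient libraries it was 23.11 points, which the test cannot decide, since 15 exchanges are too few to pass. The 12 bins became 2 with either threshold, 5 with regions of at least 5 kb and 19 with 5FdUR only. They were 11 to 14 with 1 library left out. The count of 0 bins in MMR proficient libraries decides nothing, for the same lack of exchanges. The 10 genes above every RTX library became 1 on gene bodies, 18 with 20 kb, 0 with either threshold, 1 with regions of at least 5 kb, and 10 to 30 with 1 library left out, where 30 is without 5FdUR_UGI replicate 1. The 2 genes without overlap between NT_UGI and WT became 1 on gene bodies, 7 with 20 kb, 0 with log2 of at least 0.34, 1 with the 300 Mb and 0 with regions of at least 5 kb. The MMR count stayed 0 in every setting and with any 1 library left out. The causes were not tested. With the replicate number as a replicate block, 15 histone genes were called higher, 12 lay above every RTX library, and the span difference was 26.02 points, while the span difference between the drugs no longer passed (24.35 points, exact permutation test, p = 0.0556, the smallest that 36 exchanges allow). The numbers did not pair the libraries: over 21 pairs of conditions the deviations correlated at -0.216 to 0.119. Depth is unknown from the region files.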
